A study of Mus musculus with 18 samples.

Results

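The genes described here are the 10 genes Ccr7, Fscn1, Cacnb3, Apol7c, Ccl22, Ccl17, Cd83, Il4i1, Socs2 and Tmem123, read as a programme of mature migratory dendritic cells. They were picked by symbol from a count table of 21254 genes, because Fscn1, Cacnb3, Apol7c and Ccl22 weigh heavily on the first principal component of the 18 libraries. That component separated the populations, so the differences of the 10 genes between populations are given as a description and were not tested. All 10 genes passed the filter on low counts, among 15811 genes tested.

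The libraries were bulk RNA-seq of 3 populations sorted from mouse lung 24 h after nebulization of LPS of Pseudomonas aeruginosa (12.5 mg in 5 ml PBS over 15 min). Per the labels, monocyte-derived macrophages (moMs) were CD45+CD11b+MHC-II-Ly6C+ cells, transitional interstitial macrophages (tnsIMs) were positive for both MHC-II and Ly6C, and mature interstitial macrophages (matIMs) were positive for MHC-II and negative for Ly6C. Per the study's methods, these cells were taken from the CD11c- fraction. Ezr-KOm mice carried floxed Ezr alleles (B6.Ez fl/fl) and Cre under the Cx3cr1 promoter (Cx3cr1tm1.1(cre)Jung/J), and the WT mice carried the same Cre with unfloxed Ezr. All mice were on the C57BL/6 background, 3 to 5 months old and treated with LPS, so no untreated group enters any comparison. Cx3cr1 is active in monocytes and their progeny and at lower levels in some dendritic cells and NK cells, which limits how far the deletion is restricted to macrophages. The paper states that the sequencing used 3 mice per genotype, and each population had 3 WT and 3 Ezr-KOm libraries. Whether same-numbered libraries of the 3 populations share a mouse is not stated. The 18 libraries held 16512783 to 48460995 counts in total per library. Ezr, the deleted gene, measured 497 to 741 CPM (counts scaled to library size) in the 9 WT libraries and 93.8 to 282 in the 9 Ezr-KOm libraries, without overlap. Its mean was 231 CPM in Ezr-KOm against 531 in WT for moMs, 191 against 586 for tnsIMs and 135 against 661 for matIMs. The Ezr transcript left in Ezr-KOm thus differed between populations and was highest in moMs.

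Dendritic cells that have taken up antigen in a tissue mature, switch on CCR7 and travel along lymph vessels to the draining lymph node. In this state they bundle actin with fascin, which FSCN1 encodes, and secrete CCL17 and CCL22, which attract T cells that carry CCR4. They also raise co-stimulatory proteins beside molecules that restrain T cells, and the same set of genes is known from mature conventional dendritic cells of several tissues, the lung included. In the lung this traffic carries inhaled antigen to the mediastinal lymph node.

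The 300 bases before the first base of the canonical transcript are shown for 5 of the genes whose levels rose steeply between populations. The sequences are of GRCm39, the build of the count table, with transcript starts of Gencode M39, written 5′ to 3′ on the strand of the gene. They stand for the chemokine pair (Ccl22 at chr8:95471918-95472217, plus strand, and Ccl17 at chr8:95536775-95537074, plus strand), the receptor (Ccr7 at chr11:99045912-99046211, minus strand), the actin bundler (Fscn1 at chr5:142945798-142946097, plus strand) and the gene with the smallest share of its matIM level in tnsIMs (Apol7c at chr15:77417517-77417816, minus strand). Capitals mark matches to the motifs described after the sequences.
Ccl22: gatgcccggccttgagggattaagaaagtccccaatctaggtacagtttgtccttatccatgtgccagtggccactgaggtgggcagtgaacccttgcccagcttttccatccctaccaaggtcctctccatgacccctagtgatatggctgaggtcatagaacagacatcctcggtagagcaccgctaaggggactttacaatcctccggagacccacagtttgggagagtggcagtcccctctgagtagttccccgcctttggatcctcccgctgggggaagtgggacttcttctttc
Ccl17: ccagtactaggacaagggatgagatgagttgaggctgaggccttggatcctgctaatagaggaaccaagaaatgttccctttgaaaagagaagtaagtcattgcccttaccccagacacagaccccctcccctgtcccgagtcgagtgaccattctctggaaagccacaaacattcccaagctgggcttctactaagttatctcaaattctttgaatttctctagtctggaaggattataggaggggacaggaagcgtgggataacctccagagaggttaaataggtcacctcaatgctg
Ccr7: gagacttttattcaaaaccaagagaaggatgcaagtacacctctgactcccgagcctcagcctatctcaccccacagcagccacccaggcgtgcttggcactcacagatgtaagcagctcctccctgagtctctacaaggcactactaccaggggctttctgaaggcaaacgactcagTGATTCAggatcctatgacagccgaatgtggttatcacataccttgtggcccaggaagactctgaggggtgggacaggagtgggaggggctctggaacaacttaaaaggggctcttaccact
Fscn1: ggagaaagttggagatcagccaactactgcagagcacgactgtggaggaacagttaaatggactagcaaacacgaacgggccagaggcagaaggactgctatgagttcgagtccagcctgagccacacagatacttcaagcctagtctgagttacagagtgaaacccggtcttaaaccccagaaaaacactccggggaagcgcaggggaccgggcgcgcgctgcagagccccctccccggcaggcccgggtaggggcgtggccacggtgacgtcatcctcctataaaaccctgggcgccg
Apol7c: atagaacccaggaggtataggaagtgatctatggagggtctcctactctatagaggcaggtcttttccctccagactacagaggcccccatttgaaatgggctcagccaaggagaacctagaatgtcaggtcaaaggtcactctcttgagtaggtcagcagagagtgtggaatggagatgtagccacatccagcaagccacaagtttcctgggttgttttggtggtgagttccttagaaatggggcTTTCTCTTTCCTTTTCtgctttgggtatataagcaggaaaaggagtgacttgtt

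Both strands of these windows were searched for 4 motifs in all 10 genes and in the 13212 tested protein-coding genes with a canonical transcript. The AP-1 motif TGANTCA stood in 1 of the 10 windows, that of Ccr7, against 5.92% of all windows. The interferon response element, GAAA followed by any 2 bases and GAAA, stood in 1 window, that of Apol7c, where a pair of matches on the reverse strand overlap, against 3.93% of all windows. The NF-kappaB consensus stood in 1 window, that of Il4i1, against 9.77%. The PU.1-IRF composite, GGAA followed by any 2 bases and GAAA, stood in 0 of the 10 windows, against 2.97%. Ccl22, Ccl17, Fscn1, Cacnb3, Cd83, Socs2 and Tmem123 held no match to any of the 4 motifs in these 300 bases, which says only that these letters are not in the window.

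The chemokine ligands Ccl22 (chr8:95472218-95478327) and Ccl17 (chr8:95537081-95538664) both bind CCR4 and lie 58.8 kb apart on the plus strand of chromosome 8. Because the libraries are of bulk RNA, fewer cells with a transcript and less transcript per cell cannot be told apart in any value that follows. Ccl22 measured 5.69, 6.38 and 6.38 CPM in the 3 WT moM libraries, 123, 147 and 132 in the tnsIM libraries and 2604, 3090.0 and 2200.4 in the matIM libraries, in the order of replicates 1 to 3. In the Ezr-KOm libraries, Ccl22 measured 10.7, 5.97 and 11.98 CPM in moMs, 153, 232 and 205 in tnsIMs and 3289, 2889 and 2664 in matIMs. Every tnsIM library stood above every moM library, and every matIM library above every tnsIM library, in both genotypes. The mean in matIMs was 428 times that in moMs in WT and 309 times in Ezr-KOm. Ccl17 measured 15.9, 25.1 and 14.4 CPM in the 3 WT moM libraries, 173, 352 and 124 in the tnsIM libraries and 1676, 2047 and 964 in the matIM libraries. The Ezr-KOm values of Ccl17 were 29.7, 12.9 and 54.2 CPM in moMs, 213, 239 and 309 in tnsIMs and 1464, 1437 and 1713 in matIMs. Ccl17 rested at a higher share of its matIM level in moMs and tnsIMs than Ccl22, and its matIM libraries also stood above all tnsIM libraries. The tnsIM mean of Ccl17 was 13.9% of the matIM mean in WT, against 5.10% for Ccl22.

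Per kilobase of canonical transcript, Ccl17 exceeded Ccl22 in all 18 libraries. The ratio of Ccl22 to Ccl17 CPM per kilobase was 0.0519 to 0.109 over the 6 moM libraries and 0.0981 to 0.248 over the 6 tnsIM libraries. It was 0.354 to 0.536 over the 6 matIM libraries. The balance of the 2 ligands therefore lay nearer to Ccl22 in every matIM library than in any other library, and the moM and tnsIM ranges overlapped.

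Ccr7 (chr11:99035022-99045903, minus strand) encodes the receptor for CCL19 and CCL21 that leads dendritic cells into lymph vessels. It measured 16.3, 14.2 and 9.76 CPM in the 3 WT moM libraries, 99.8, 128 and 94.4 in the tnsIM libraries and 1944, 2018 and 1480.1 in the matIM libraries. The Ezr-KOm libraries held 28.3, 14.0 and 14.7 CPM of Ccr7 in moMs, 136, 181 and 143 in tnsIMs and 2417, 2131 and 1858 in matIMs. The 3 populations did not overlap in either genotype, and the matIM mean was 135 times the moM mean in WT and 112 times in Ezr-KOm. Of the ligands of CCR7 and the receptors and scavengers of these chemokines, 7 genes were listed and 3 were tested (Ackr2, Ccl21a and Ccl19). Ackr2, a scavenger of inflammatory CC chemokines, measured 7.68 ± 2.69 CPM (SD, n = 3) in WT tnsIMs and 0.946 ± 0.523 in WT matIMs. Its log2 fold change of matIMs against tnsIMs was -3.00 (adjusted p = 0.000261) by edgeR's quasi-likelihood test with Benjamini-Hochberg adjustment over all tested genes, the test behind every adjusted p given here.

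Fscn1 (chr5:142946098-142958940, plus strand) encodes fascin, which bundles actin into the dendrites of mature dendritic cells. It measured 1.02, 1.37 and 1.81 CPM in the 3 WT moM libraries, 32.9, 40.2 and 47.5 in the tnsIM libraries and 613, 1019 and 838 in the matIM libraries. For Ezr-KOm the Fscn1 values were 1.17, 2.00 and 1.498 CPM in moMs, 32.2, 86.9 and 47.6 in tnsIMs and 939, 1194 and 1035 in matIMs. Levels near 1 or 2 CPM in moMs thus stood against levels above 600 CPM in every matIM library, and tnsIMs lay between without overlap. Cacnb3 (chr15:98528721-98542410, plus strand) encodes a beta subunit of voltage-gated calcium channels. It measured 0.228, 0.207 and 0.354 CPM in the 3 WT moM libraries, 6.67, 15.6 and 11.3 in the tnsIM libraries and 139, 282 and 244 in the matIM libraries. In Ezr-KOm, Cacnb3 stood at 0.174, 0.0385 and 0.661 CPM in moMs, 9.05, 18.9 and 12.8 in tnsIMs and 219.9, 331 and 239 in matIMs. The moM values of Cacnb3 rest on 1 to 15 counts per library, so the ratio of matIM to moM means, 843 in WT, is imprecise. Of 13 further calcium channel subunits listed, 8 were tested. In WT matIMs 4 of them were higher than in moMs, the most abundant being Cacnb1, another beta subunit, at 7.26 ± 0.724 against 3.77 ± 1.41 CPM (SD, n = 3) and a log2 fold change of 0.93 (adjusted p = 0.00765). Cacnb3 stood above Cacnb1 in mean CPM in matIMs and below it in moMs.

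Apol7c (chr15:77409052-77417516, minus strand) belongs to the apolipoprotein L family. It measured 0, 0.0414 and 0.315 CPM in the 3 WT moM libraries, 1.75, 1.77 and 5.76 in the tnsIM libraries and 53.7, 113 and 128 in the matIM libraries. The corresponding Ezr-KOm values of Apol7c were 0.348, 0.0771 and 0.0881 CPM in moMs, 2.53, 6.26 and 1.95 in tnsIMs and 95.1, 126 and 81.3 in matIMs. The moM libraries held 0 to 8 counts of Apol7c, and the matIM libraries 1211 to 3671. Of 12 other Apol genes listed, 4 were tested, and in WT matIMs only Apol10b among them was higher than in moMs, with a log2 fold change of 2.04 (adjusted p = 0.00516). Apol10b measured 3.46 ± 1.34 CPM in WT tnsIMs and 2.40 ± 1.13 in WT matIMs (SD, n = 3), and its difference between these, -0.52 (adjusted p = 0.523), did not pass the test. Near-identical copies within this family can share reads, so their counts are uncertain.

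Cd83 (chr13:43938251-43956608, plus strand) encodes a surface glycoprotein of mature dendritic cells that keeps MHC-II and CD86 on the surface. It measured 2208, 2231 and 1732 CPM in the 3 WT moM libraries, 2162, 3181 and 1630.0 in the tnsIM libraries and 4185, 4343 and 3037 in the matIM libraries. The values of Cd83 in Ezr-KOm were 2633, 2273 and 2065 CPM in moMs, 2619, 2135 and 2172 in tnsIMs and 4912, 4388 and 4006 in matIMs. Unlike the genes above, Cd83 was already abundant in moMs, and moM and tnsIM libraries overlapped. In WT the highest tnsIM library stood above the lowest matIM library. The moM mean was 53.4% of the matIM mean in WT and 52.4% in Ezr-KOm.

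Socs2 (chr10:95221224-95253042, minus strand) encodes an inhibitor of cytokine receptor signalling. It measured 21.8, 24.6 and 16.7 CPM in the 3 WT moM libraries, 46.0, 45.3 and 43.9 in the tnsIM libraries and 100.4, 125 and 107 in the matIM libraries. The Ezr-KOm libraries held 21.8, 21.1 and 23.1 CPM of Socs2 in moMs, 44.9, 35.9 and 46.8 in tnsIMs and 130.1, 129 and 108 in matIMs. Socs2 rose in steps without overlap, and its matIM mean was 5.27 times the moM mean in WT. Antisense genes cover 22.8% of its exonic bases, and whether the counting used strand is not stated. Of the 7 other genes of the SOCS family, in WT matIMs against moMs only Cish was higher, by 1.10 (adjusted p = 0.00904) on the log2 scale, and only Socs3 was lower, with a log2 fold change of -0.58 (adjusted p = 0.0300). Tmem123 (chr9:7764042-7794334, plus strand) encodes a transmembrane glycoprotein. It measured 232, 204 and 214 CPM in the 3 WT moM libraries, 247, 279 and 245 in the tnsIM libraries and 863, 1458 and 1046 in the matIM libraries. Ezr-KOm libraries held 195, 207 and 217 CPM of Tmem123 in moMs, 256, 267 and 267 in tnsIMs and 1215, 1727 and 1008 in matIMs. The step of Tmem123 lay between tnsIMs and matIMs, with moM and tnsIM libraries close to each other but not overlapping.

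Il4i1 (chr7:44465811-44490233, plus strand) encodes a secreted oxidase that breaks down phenylalanine and restrains T cells. Its libraries held 0 to 13 counts. The WT libraries had 1, 6 and 7 counts in moMs, 0, 1 and 1 in tnsIMs and 4, 13 and 11 in matIMs. The Ezr-KOm libraries had 1, 1 and 8 counts in moMs, 1, 0 and 2 in tnsIMs and 5, 13 and 8 in matIMs. Every tnsIM library was at or under 3 counts, so matIMs were at least 2.64-fold higher than tnsIMs in WT and at least 3.09-fold higher in Ezr-KOm, with 3 counts taken for each tnsIM library. The moM and matIM libraries overlapped. Exons of other genes (Tbc1d17, Nup62 and Atf5) cover 92.4% of the exonic bases of Il4i1 on either strand and 20.2% on its own strand. Reads that overlap several genes are left out by the counter, so these counts may miss most of the transcript, and the level of Il4i1 is uncertain.

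**Figure D1:**
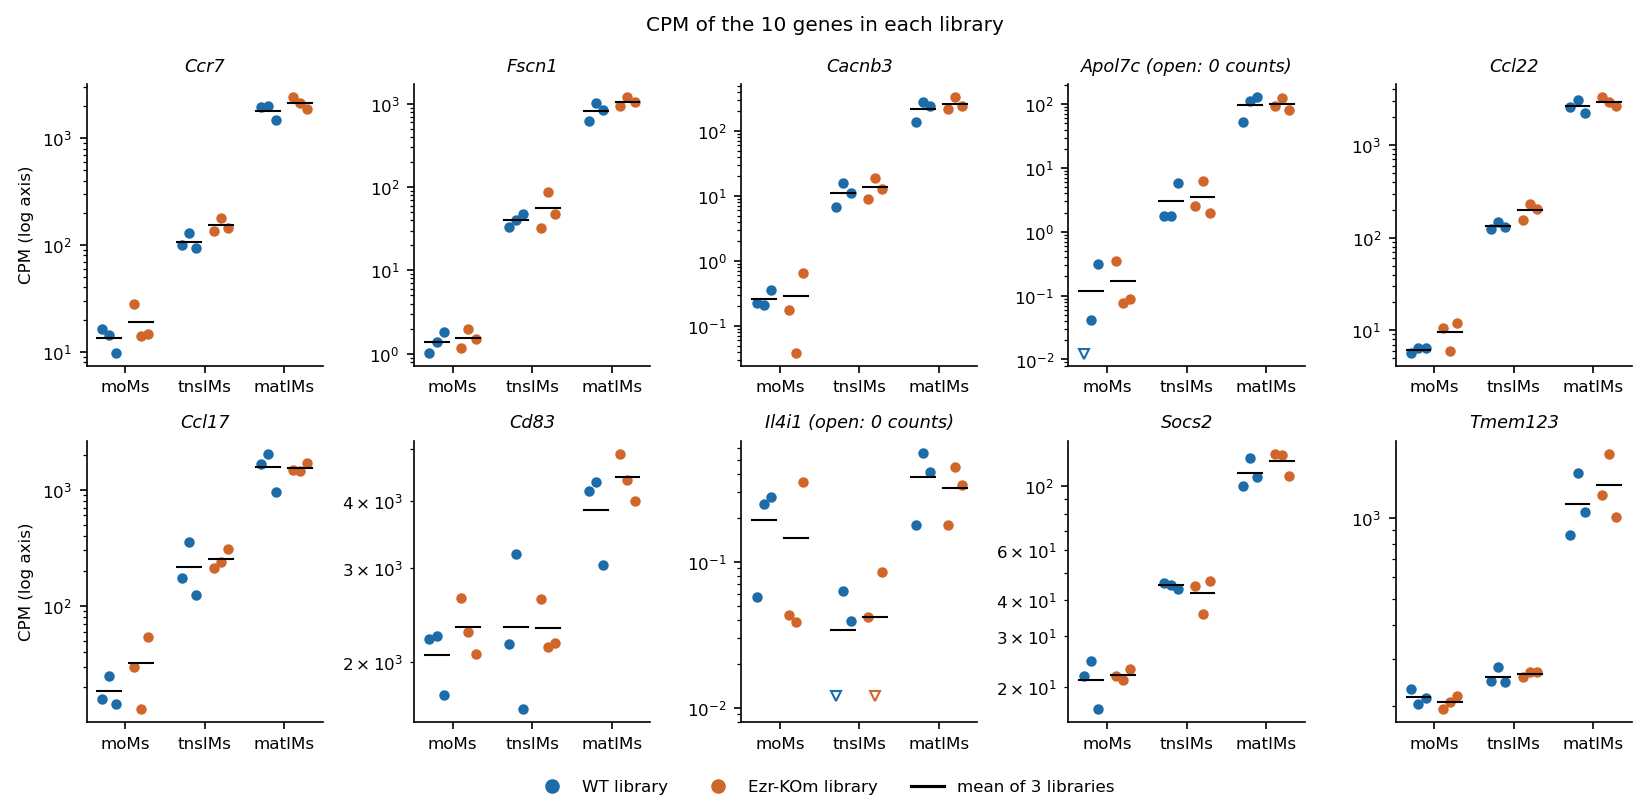
Each panel shows 1 of the 10 genes, with CPM on a log axis for every library, WT in blue and Ezr-KOm in orange, and a line at the mean of 3 libraries. The matIM mean is the highest for all 10 genes in both genotypes, with tnsIMs between for most, and open triangles mark libraries with 0 counts.

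The first principal component, from the 500 most variable genes, carried 68.8% of their variance. At its matIM end Cacnb3 ranked 3rd by weight, Fscn1 5th, Apol7c 8th and Ccl22 14th, with Ccr7 31st and Ccl17 71st, and the other 4 genes were not among the 500. These ranks use the values that chose the genes. The matIM mean was the highest for 10 of 10 genes in WT and in Ezr-KOm. In WT, every tnsIM library stood above every moM library for 8 of the 10 genes (not Cd83 and Il4i1), which was so for 19.6% of all tested genes. Every WT matIM library stood above every tnsIM library for 9, all but Cd83 (16.2% of all genes) and above every moM library for 9, all but Il4i1 (22.2%). In Ezr-KOm the counts were 8 (16.1%), 10 (15.5%) and 9 (20.7%). The median log2 fold change of the 10 genes in matIMs against moMs was 6.74 in WT and 6.20 in Ezr-KOm, beside 0.013 and 0.0067 over all tested genes.

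Of the 10 genes, 6 had steep steps, 3 had shallow steps, and Il4i1 had its lowest counts in tnsIMs. Ccr7, Fscn1, Cacnb3, Apol7c, Ccl22 and Ccl17 stood in WT moMs at 0.119 to 1.18% of their matIM means, and in tnsIMs at 3.15 to 13.9%. Cd83, Socs2 and Tmem123 stood at 19.0 to 53.4% in WT moMs and 22.9 to 60.3% in WT tnsIMs. For comparison, the 180 other genes at least 8 times higher in WT matIMs than in moMs, and at 10 CPM or more in matIMs, had a median tnsIM level of 15.4% of matIMs, with quartiles of 10.2 and 24.4%. In 43 of these 180 genes tnsIMs were under 10% of matIMs, as they were in Apol7c, Fscn1, Cacnb3, Ccl22 and Ccr7. The 6 steep genes had WT ratios of matIM to moM means of 84.6 to 843. The comparison set admits genes with shallower steps, from 8-fold, so the shares are not like for like.

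**Figure D2:**
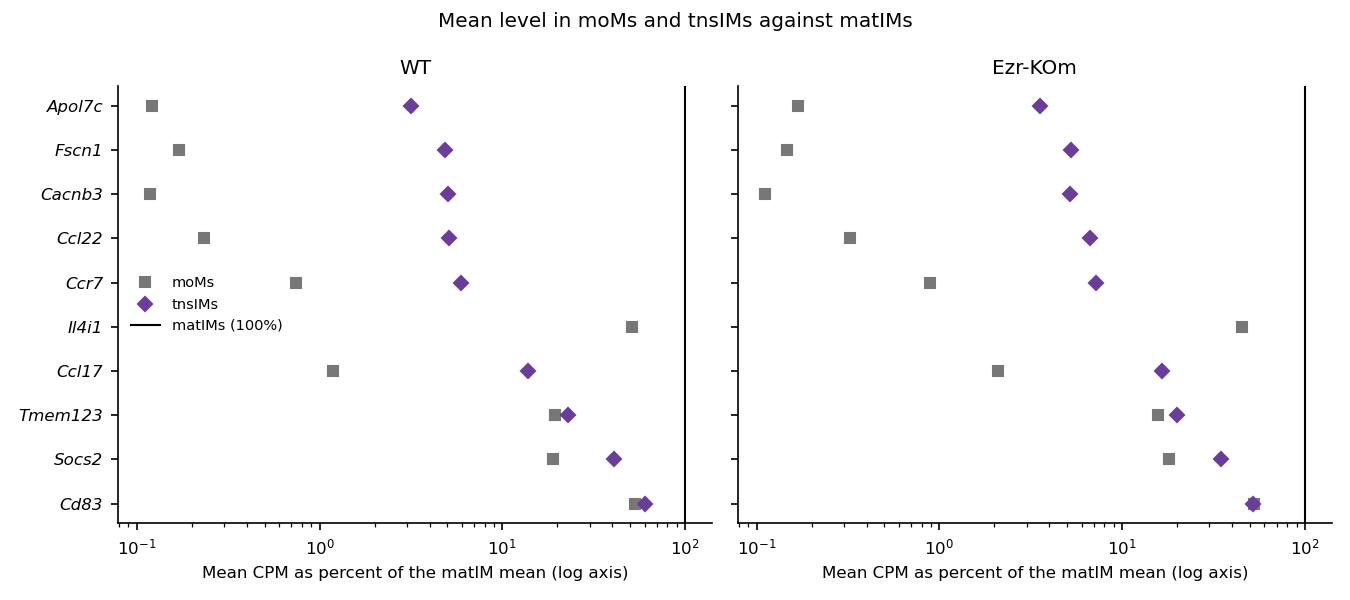
The mean CPM of each gene in moMs (squares) and tnsIMs (diamonds) is drawn as a percent of its matIM mean on a log axis, for WT and Ezr-KOm. The steep group lies at 2.10% or less in moMs, while Cd83, Socs2 and Tmem123 lie at 15.7% or more, and tnsIMs of Il4i1 are left out because they held 3 counts or fewer.

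Set side by side per kilobase of canonical transcript, Ccl17 had the highest mean in WT matIMs at 3004 ± 1058 CPM per kb (SD, n = 3). Cd83 followed at 1540.1 ± 285, Ccl22 at 1187 ± 201 and Ccr7 at 913 ± 147 CPM per kb. Tmem123 stood at 386 ± 105, Fscn1 at 306 ± 75.6, Cacnb3 at 89.4 ± 29.8, Apol7c at 47.7 ± 19.1 and Socs2 at 43.7 ± 5.08 CPM per kb. Neighbours whose WT matIM libraries overlapped were Cd83 and Ccl22, Ccl22 and Ccr7, Tmem123 and Fscn1, Cacnb3 and Apol7c, and Apol7c and Socs2. In WT moMs the order differed, with Cd83 at 822 ± 113, Tmem123 at 74.6 ± 4.91 and Ccl17 at 35.5 ± 11.1 CPM per kb.

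Among the 6 matIM libraries, WT replicate 1 was the lowest for 6 of the 10 genes (Fscn1, Cacnb3, Apol7c, Il4i1, Socs2 and Tmem123) and WT replicate 3 was the lowest for the other 4 (Ccr7, Ccl22, Ccl17 and Cd83). Ezr-KOm replicate 1 was the highest for 4 genes (Ccr7, Ccl22, Cd83 and Socs2). The ratio of the highest to the lowest matIM library ran from 1.30 for Socs2 to 2.39 for Apol7c among the 9 genes other than Il4i1, which is far below the steps between matIMs and moMs for the steep group.

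Within a population, the genotype comparison asks whether the loss of ezrin, a linker of the plasma membrane to actin, changed these genes within a population. This comparison does not enter the choice of the genes. By edgeR, 0 of the 10 genes passed an adjusted p of 0.05 in any population, against 0.171% of all tested genes for moMs, 0.164% for tnsIMs and 0.152% for matIMs. At an unadjusted p under 0.05 there was 1 gene in moMs (3.74% of all genes), 2 in tnsIMs (3.24%) and 0 in matIMs (3.84%). DESeq2 gave the same counts, 0 adjusted in each population and 1, 2 and 0 unadjusted. With the replicate number as a block the unadjusted counts were 2, 3 and 1, with Ccr7 added in moMs and Fscn1 in tnsIMs and matIMs, and again 0 passed after adjustment. Over all tested genes the block gave 5.36%, 5.49% and 5.98% at an unadjusted p under 0.05. These unadjusted counts moved with single libraries. The moM count was 0 without Ezr-KOm replicate 1, 2 without WT replicate 1 or 2 and 3 without Ezr-KOm replicate 2, the tnsIM count was 0 without Ezr-KOm replicate 2 and 3 without Ezr-KOm replicate 1, and the matIM count was 1 (Tmem123) without WT replicate 2 or Ezr-KOm replicate 3. Without Ezr-KOm replicate 3 the moM count stayed at 1, but the gene was Ccr7 in place of Ccl22. In tnsIMs Ccr7 was lost, leaving Ccl22 alone, without WT tnsIM replicate 1 or 3, WT moM replicate 2 or Ezr-KOm matIM replicate 2, with upper-quartile normalization and with at least 10 counts in every library. The study called genes by a p without adjustment and a minimum size of 0.75 on the log2 scale, and by that rule 0 of the 10 genes were called, beside 2.51%, 1.83% and 2.4% of all tested genes in the same order.

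The gene at the unadjusted threshold in moMs was Ccl22, at 9.54 ± 3.16 CPM in Ezr-KOm and 6.15 ± 0.397 in WT (SD, n = 3). Its log2 fold change was 0.63 ± 0.221 (SE), with a 95% interval of 0.16 to 1.09 and an adjusted p of 0.902. Ezr-KOm was higher in 2 of the 3 pairs of same-numbered replicates, and replicate 2 lay within the WT range. In tnsIMs, Ccl22 was 197 ± 40.1 CPM in Ezr-KOm and 134 ± 11.99 in WT, with a log2 fold change of 0.55 ± 0.204 and an interval of 0.13 to 0.98. Ccr7 in tnsIMs was 153 ± 24.0 against 107 ± 18.1 CPM, with a log2 fold change of 0.51 ± 0.239 and an interval of 0.011 to 1.02. For these 2 genes every Ezr-KOm tnsIM library stood above every WT library, which was so for 3.05% of all genes, and the adjusted p was 1 for both. In moMs and in matIMs 0 of the 10 genes separated the genotypes upward in this way, beside 4.46% and 5.03% of all genes. In matIMs the log2 fold change was 0.16 ± 0.202 for Ccl22 and 0.24 ± 0.238 for Ccr7, and the genotypes overlapped.

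The largest fitted difference was that of Ccl17 in moMs, a log2 fold change of 0.80 ± 0.420 with an interval of -0.079 to 1.68 and an adjusted p of 1. The Ezr-KOm moM libraries of Ccl17 spanned the WT range on both sides. Fscn1 gave 0.47 ± 0.278 in tnsIMs and 0.36 ± 0.274 in matIMs. In matIMs Ezr-KOm was higher in 3 of 3 same-numbered pairs for Ccr7, Fscn1, Cd83 and Socs2, and the groups overlapped for each. In tnsIMs all 3 pairs were higher in Ezr-KOm for Ccl22, Ccr7 and Cacnb3, and in moMs for Cd83. Cacnb3 gave 0.30 ± 0.355 in tnsIMs and 0.25 ± 0.337 in matIMs. Apol7c gave 0.23 ± 0.497 and 0.039 ± 0.434, with intervals of -0.82 to 1.27 and -0.87 to 0.95, so the matIM interval spans changes by a factor of nearly 2 in either direction. Cd83, Socs2 and Tmem123 had narrower intervals in matIMs, of -0.23 to 0.63, -0.17 to 0.45 and -0.16 to 0.62. For Il4i1 the moM interval ran from -2.39 to 1.42, and no fold is given in tnsIMs, where every library held 3 counts or fewer.

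Ezr-KOm had the higher fitted value for 8 of the 10 genes in moMs, for 7 of the 9 genes above 3 counts in tnsIMs, and for 8 of the 10 in matIMs, against 50.5%, 50.4% and 49.8% of all tested genes. The genes of the programme vary together between libraries, so these counts are a description and not a test. The genotype difference itself did not differ between populations for any of the 10 genes at an adjusted p under 0.05 by edgeR or DESeq2, nor at an unadjusted p under 0.05 by either tool. The unadjusted count for matIMs against moMs was 2 (Ccl17 and Ccl22) without Ezr-KOm moM replicate 2 and 1 (Tmem123) without WT matIM replicate 2. Over all genes, 0 passed the adjusted threshold in each of these 3 interactions (0% of genes), and 1.47%, 1.7% and 1.16% passed unadjusted for tnsIMs against moMs, matIMs against moMs and matIMs against tnsIMs. The interaction of matIMs against moMs was -0.46 ± 0.300 for Ccl22 and -0.82 ± 0.583 for Ccl17 on the log2 scale (SE).

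**Figure D3:**
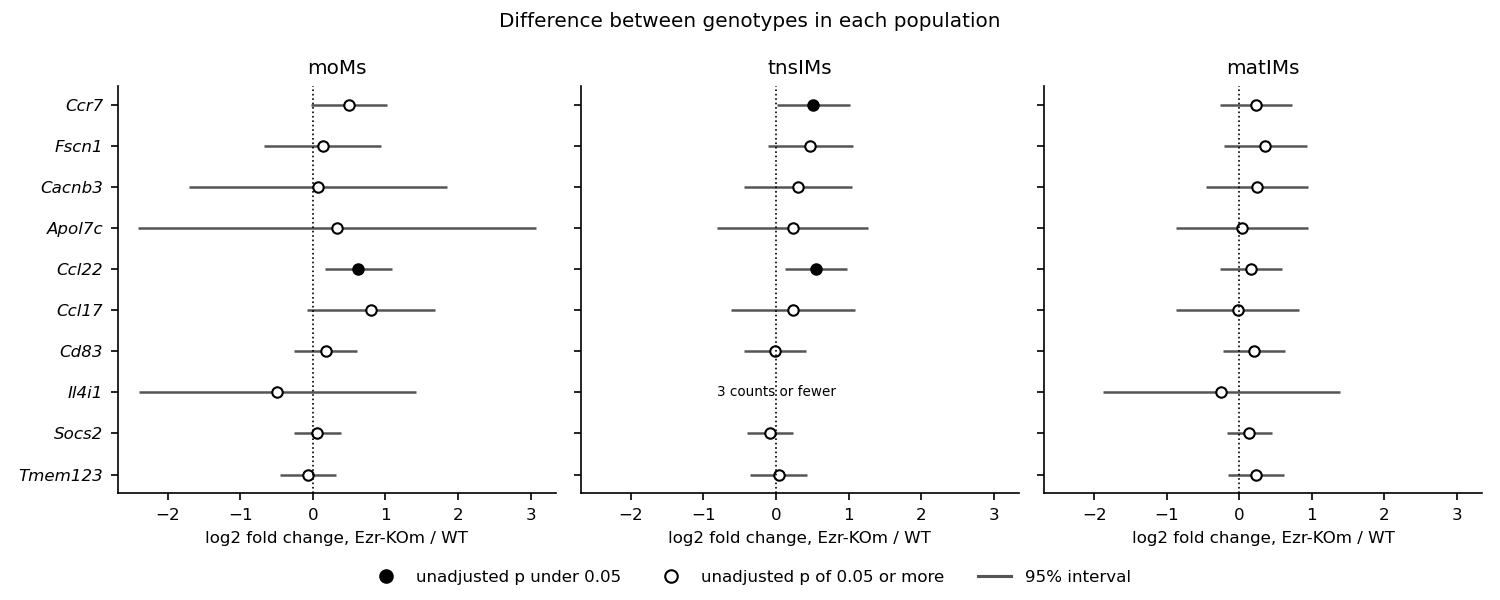
Points are log2 fold changes of Ezr-KOm against WT with 95% intervals for each gene in moMs, tnsIMs and matIMs, filled where the unadjusted p was under 0.05. Ccl22 in moMs and tnsIMs and Ccr7 in tnsIMs are filled, and 0 of the 10 genes passed after adjustment over all genes.

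A wider set of 54 genes known from mature migratory dendritic cells, in 6 lists, was compared between populations, and all 54 passed the filter. These lists were chosen with earlier results of these data known. Their counts and adjusted p-values between populations are therefore a description and not independent support for the programme. In WT matIMs 37 were higher and 2 lower than in moMs, against 13.4% of all genes higher and 11.4% lower. Against tnsIMs, 29 were higher and 4 lower in WT matIMs (8.32% and 10.2% of all genes), and in WT tnsIMs 24 were higher and 2 lower than in moMs (13% and 8.61%). In Ezr-KOm the counts were 38 higher and 2 lower for matIMs against moMs (12.5% and 10.7%), 29 and 2 for matIMs against tnsIMs (8.37% and 9.85%), and 22 and 2 for tnsIMs against moMs (9.23% and 5.04%). The median log2 fold change of the 54 genes in matIMs against moMs was 1.31 in WT and 1.30 in Ezr-KOm. Between genotypes 0 of the 54 passed in any population by edgeR or DESeq2. At an unadjusted p under 0.05 edgeR gave 3, 2 and 3 for moMs, tnsIMs and matIMs (3.74%, 3.24% and 3.84% of all genes). DESeq2 gave 4, 2 and 3 (4.19%, 3.67% and 4.23%). With the replicate block the unadjusted counts of the 54 were 7, 4 and 7 (5.36%, 5.49% and 5.98%), and 0 after adjustment.

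Maturation genes were higher in WT matIMs than in moMs for 13 of 13. Cd86 and Cd80, the co-stimulatory ligands of CD28, had log2 fold changes of 0.78 (adjusted p = 0.00209) and 0.80 (adjusted p = 0.00338). Cd40, through which T cells license dendritic cells, rose by 1.17 (adjusted p = 0.00166), and Relb, an NF-kappaB subunit of mature dendritic cells, by 1.46 (adjusted p = 2.67e-07). Icosl, the ligand of ICOS on T cells, went from 84.0 ± 19.0 to 258 ± 37.4 CPM (SD, n = 3), a log2 fold change of 1.62 (adjusted p = 5.06e-06). The 12 other migratory dendritic cell genes were all higher in WT matIMs than in moMs, with a median log2 fold change of 3.38. Slco5a1, named after its values were seen, held no more than 3 counts in any of the WT moM libraries and was at least 62.9-fold higher in WT matIMs, with 3 counts taken for each moM library. Among them Serpinb9, an inhibitor of granzyme B, rose by 3.63 (adjusted p = 1.25e-08), and Ccl5, a chemokine for T cells, by 3.37 (adjusted p = 1.58e-05). Cd63, a tetraspanin of late endosomes, rose by 1.45 (adjusted p = 0.000169), Zmynd15 by 2.28 (adjusted p = 2.63e-08) and the nuclear receptor gene Nr4a3 by 1.73 (adjusted p = 0.00797).

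The other lists were mixed. Of 6 regulatory genes, 3 were higher in WT matIMs than in moMs. Aldh1a2, which makes retinoic acid, went from 1.05 ± 0.397 CPM in WT moMs through 6.11 ± 0.619 in tnsIMs to 122 ± 43.3 in matIMs (SD, n = 3), a log2 fold change of 6.88 (adjusted p = 4.70e-10). Cd200, whose product restrains myeloid cells, rose by 2.30 (adjusted p = 9.23e-08). Cd274, which encodes PD-L1, differed by 0.75 (adjusted p = 0.128) and Socs1 by 0.46 (adjusted p = 0.202), and neither passed. Of 9 migration and cytoskeleton genes, 4 were higher in WT matIMs than in moMs. Cxcl16 rose by 1.54 (adjusted p = 8.46e-07), the unconventional myosin gene Myo1g by 0.79 (adjusted p = 0.000476) and the actin-regulator gene Marcksl1 by 0.63 (adjusted p = 0.000851). Icam1 and Adam8, at 0.31 (adjusted p = 0.0789) and 0.40 (adjusted p = 0.195), did not pass.

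Of 4 genes of the T helper 2 response, Tnfrsf4 was higher in WT matIMs than in moMs, by 4.52 (adjusted p = 1.32e-07), and Il4ra, the receptor chain for IL-4, was lower, with a log2 fold change of -0.57 (adjusted p = 0.00528). Stat6, the transcription factor below that receptor, differed by -0.40 (adjusted p = 0.0737). Of 10 genes of the NF-kappaB response and survival, 4 were higher and 1 lower in WT matIMs than in moMs. Traf1 rose by 1.22 (adjusted p = 0.000561), while the inhibitor genes Nfkbia and Tnfaip3 and the subunit genes Rel and Nfkb2 did not pass, with log2 fold changes of -0.25 (adjusted p = 0.450), -0.33 (adjusted p = 0.263), 0.096 (adjusted p = 0.856) and 0.17 (adjusted p = 0.393). The lower gene, named after its values were seen, was Birc3, an inhibitor of apoptosis, at -0.70 (adjusted p = 0.000435). The 4 genes lower in WT matIMs than in WT tnsIMs, also named after their values were seen, were Lamp3, Clu, Fas and Bcl2l1. Lamp3, a lysosomal protein of mature dendritic cells and of alveolar type II cells, measured 86.8 ± 29.3 CPM in WT tnsIMs and 9.23 ± 0.587 in WT matIMs (SD, n = 3), a log2 fold change of -3.23 (adjusted p = 2.30e-06). Lamp3 and Clu were also lower in Ezr-KOm matIMs than in tnsIMs, whereas Fas and Bcl2l1 did not pass there, with log2 fold changes of -0.37 (adjusted p = 0.152) and -0.25 (adjusted p = 0.483). In WT, Clu, a secreted chaperone, had -1.27 (adjusted p = 0.00263), Fas, a death receptor, -0.52 (adjusted p = 0.0389), and Bcl2l1, an inhibitor of apoptosis, -0.62 (adjusted p = 0.0408). Of 6 markers of epithelium, 3 (Sftpc, Sftpb and Krt18) were also lower in WT matIMs than in WT tnsIMs, while Epcam, Cdh1 and Scgb1a1 had higher means in matIMs without passing. Their sum, mostly Sftpc in tnsIMs, was 1145 to 2095 CPM in WT tnsIMs and 387 to 392 in WT matIMs, and their part in the values of Lamp3 and Clu was not tested.

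**Figure D4:**
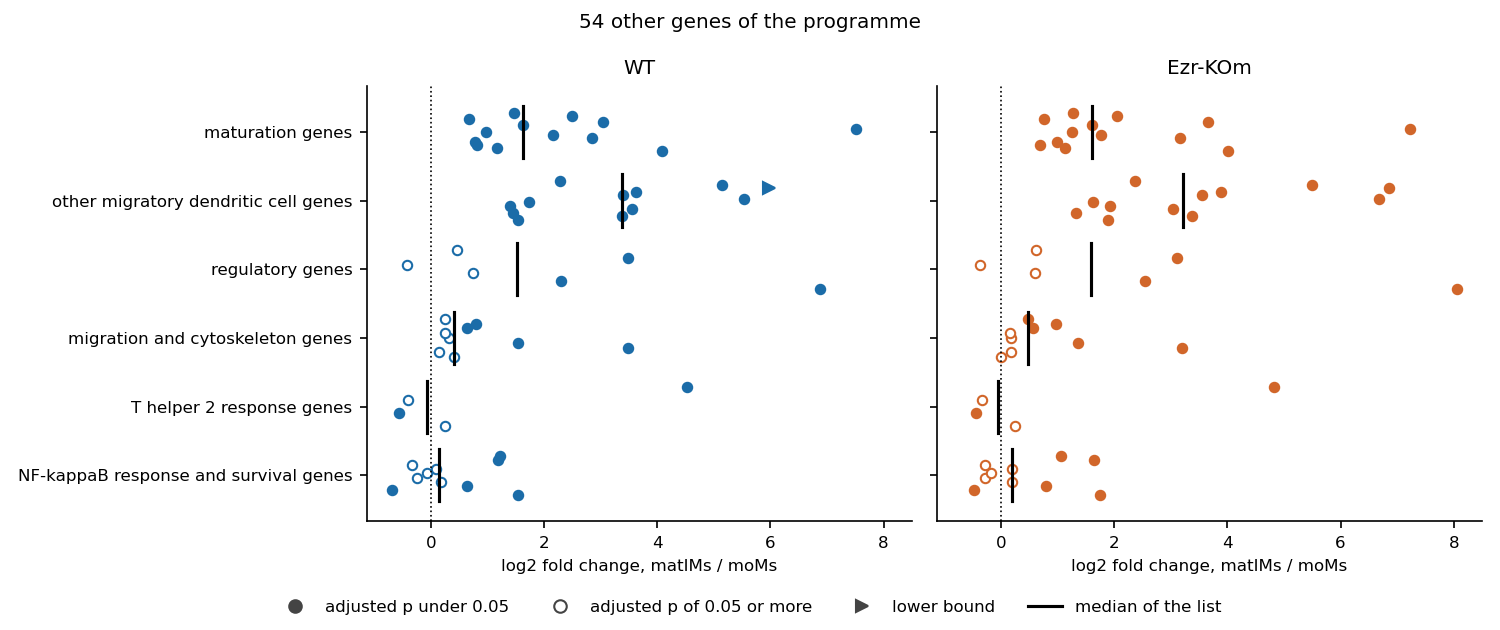
Each point is 1 of 54 other genes of the programme, placed by its log2 fold change of matIMs against moMs in WT and Ezr-KOm, filled where the adjusted p was under 0.05, with a black line at the median of each list. All 13 maturation genes and all 12 other migratory dendritic cell genes lie above 0, and a triangle marks the lower bound for Slco5a1 in WT.

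The 10 genes are a programme of dendritic cells, and the libraries are labelled as macrophages, so the markers of both were read in every group. The marker lists, too, were chosen with earlier results of these data known, so their differences between populations are a description. The summed CPM of 4 conventional dendritic cell markers (Flt3, Zbtb46, Kit and Dpp4) was 82.2 to 105 in WT moMs, 61.0 to 124 in WT tnsIMs and 371 to 538 in WT matIMs. In Ezr-KOm it was 83.2 to 108, 74.8 to 142 and 467 to 636. All 4 were higher in matIMs than in moMs in both genotypes. Zbtb46, a transcription factor of conventional dendritic cells, had a log2 fold change of 5.09 (adjusted p = 1.07e-09) in WT, and Flt3, their growth factor receptor, of 1.87 (adjusted p = 0.000242). Between WT tnsIMs and moMs the list was mixed. Zbtb46 and Kit were higher in tnsIMs, with log2 fold changes of 2.34 (adjusted p = 1.45e-05) and 1.59 (adjusted p = 0.000433), Flt3 was lower, with -1.61 (adjusted p = 0.00159), and Dpp4 did not pass, with -0.58 (adjusted p = 0.148).

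Of 6 markers of the cDC2 subset, 5 were higher in WT matIMs than in moMs and 1, Sirpa, was lower. Among the 5 was Epcam, which is also counted among the markers of epithelium above. The lectin genes Cd209a, Mgl2 and Clec10a and the transcription factor gene Irf4 had log2 fold changes of 4.64 (adjusted p = 4.18e-05), 5.74 (adjusted p = 5.37e-10), 2.83 (adjusted p = 1.44e-06) and 2.85 (adjusted p = 2.20e-06). Of 7 cDC1 markers, 4 were higher in WT matIMs than in moMs, and their sum was 373 to 604 CPM in WT moMs and 392 to 559 in WT matIMs, with Irf8 making up most of it. Markers of plasmacytoid dendritic cells summed to 155 to 170.1 CPM in WT moMs and 177 to 224 in WT matIMs.

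The 10 macrophage markers summed to 7031 to 8684 CPM in WT moMs, 6859.9 to 8695 in WT tnsIMs and 4889 to 5598 in WT matIMs. The list was mixed, with 3 genes higher and 4 lower in matIMs than in moMs in WT, and 3 higher and 6 lower in Ezr-KOm. The values that follow are of WT matIMs against moMs. Csf1r, the receptor for the macrophage growth factor, had a log2 fold change of -0.80 (adjusted p = 8.68e-05), Apoe, an apolipoprotein gene, of -1.57 (adjusted p = 0.000125), and C1qb, a complement gene of tissue macrophages, of 1.202 (adjusted p = 0.000546). Markers of macrophages were therefore present in every matIM library beside those of conventional dendritic cells. The 6 monocyte markers were all lower in matIMs than in moMs in both genotypes. Itgax, which encodes CD11c, measured 269 ± 19.0 CPM in WT moMs, 555 ± 108 in WT tnsIMs and 657 ± 51.9 in WT matIMs (SD, n = 3). In Ezr-KOm its means were 302, 579 and 584 CPM in the same order. All 3 populations were taken from the CD11c- fraction. The part of dendritic cells within the matIM gate in the levels of the 10 genes was not tested.

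The 8 B cell markers moved in the same direction. They summed to 11.9 to 17.4 CPM in WT moMs, where Pax5 and Cr2 were at or under 3 counts, 65.1 to 99.3 in WT tnsIMs and 186 to 263 in WT matIMs, and all 8 were higher in WT matIMs than in moMs. In Ezr-KOm the sums were 12.6 to 18.7 CPM in moMs, 65.5 to 145 in tnsIMs and 126 to 300 in matIMs, so tnsIM and matIM libraries overlapped. Cd79a, a chain of the B cell receptor, went from 0.269 ± 0.169 to 56.7 ± 13.9 CPM (SD, n = 3). Per the study's methods, the gate took CD11b+ cells. The part of B cell RNA in the levels of the 10 genes was not tested. The 5 endothelial markers, all lower in WT matIMs than in WT tnsIMs, summed to 238 to 401 CPM in WT tnsIMs and 69.0 to 92.0 in WT matIMs. Of 7 neutrophil markers, S100a9 was higher in WT matIMs than in moMs, by 2.19 (adjusted p = 8.06e-05), Csf3r was lower, with a log2 fold change of -1.59 (adjusted p = 0.000101), and the median of the list was 1.79. Their sum, mostly Csf3r in moMs, was 443 to 479 CPM in WT moMs and 231 to 301 in WT matIMs. The 8 T and NK cell markers, of which 1 was higher and 1 lower, summed to 32.9 to 37.7 and 44.0 to 52.2 CPM. Of 7 alveolar macrophage markers, 5 were higher and 1 lower in WT matIMs than in moMs. Marco, a scavenger receptor gene, rose by 4.70 (adjusted p = 1.79e-05) and Fabp4, a fatty acid binding protein gene, by 2.36 (adjusted p = 7.59e-06), while Chil3 was lower, with a log2 fold change of -4.13 (adjusted p = 2.64e-08), and carried the fall of the summed list from 5273 to 6586 to 517 to 662 CPM. Their part in the levels of the 10 genes was not tested.

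**Figure D5:**
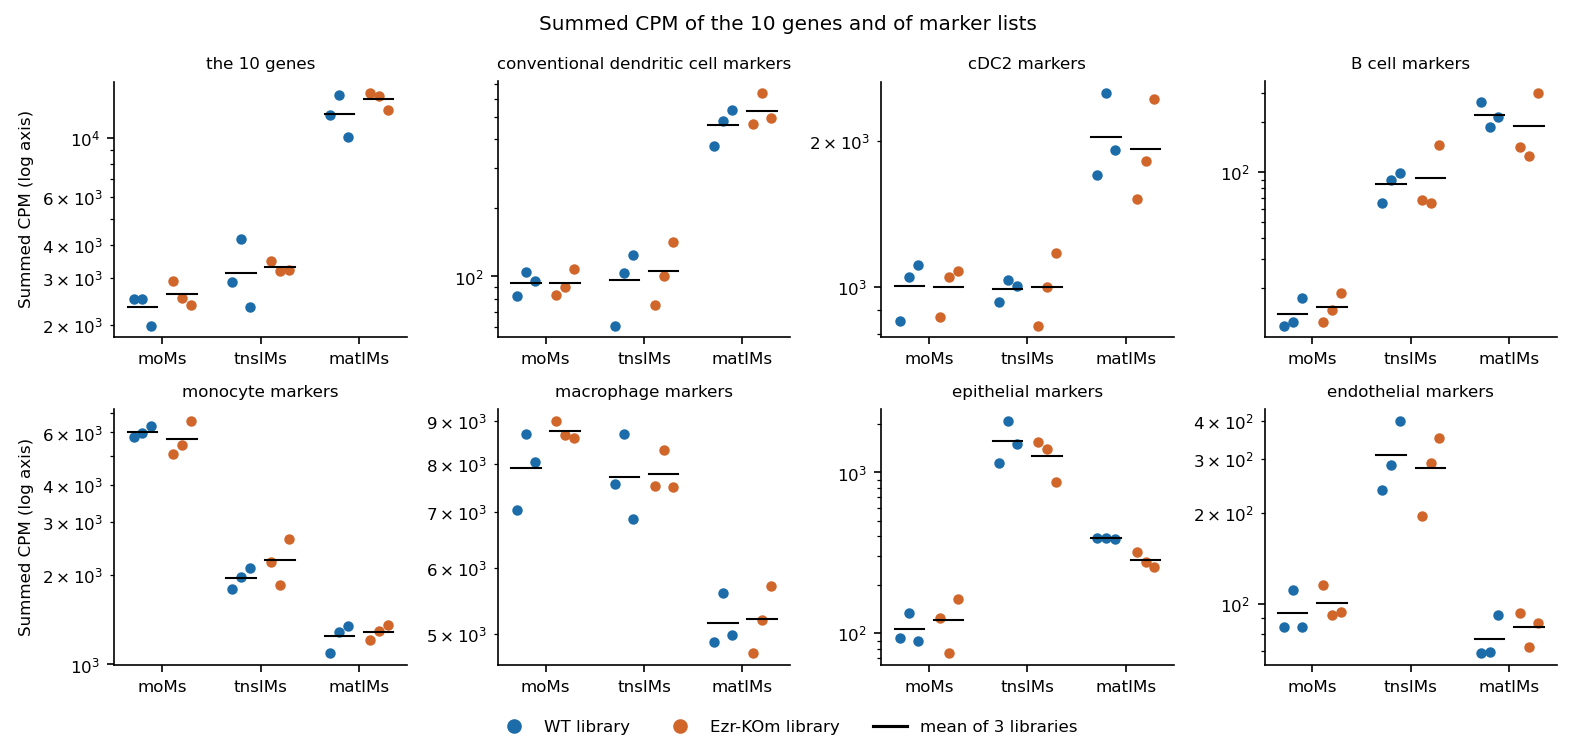
Panels show the summed CPM of the 10 genes and of 7 marker lists in each library on log axes, WT in blue and Ezr-KOm in orange, with lines at the means of 3 libraries. By their means, the sums of the 10 genes, the conventional dendritic cell markers and the B cell markers are highest in matIMs. The B cell sums of single tnsIM and matIM libraries overlap in Ezr-KOm. The monocyte and macrophage sums are lowest there, although single macrophage markers moved in both directions. The epithelial and endothelial sums peak in tnsIMs, the epithelial one mostly through Sftpc.

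The summed CPM of the 10 genes in the WT matIM libraries was 12179, 14495 and 10045, while the conventional dendritic cell markers summed to 371, 479 and 538 in the same order. In the Ezr-KOm matIM libraries the 10 genes summed to 14681, 14352 and 12714 CPM and those markers to 467, 636 and 493. The sum of the 10 genes is carried by Cd83, Ccl22, Ccr7 and Ccl17, and WT replicate 3 had its lowest value and the second highest marker sum. WT replicate 1 was the lowest of the 6 libraries for the markers and for 6 of the 10 genes. Apol7c had the order of the markers over the WT libraries only, and Fscn1, Cacnb3 and Il4i1 had it over the Ezr-KOm libraries only. No gene had it in both genotypes. Orders over 3 libraries are a description, and a link of the 10 genes to the markers was not tested.

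Outside the 10 genes, the genes whose levels followed the mean profile of the 10 most closely over the 18 libraries, by Pearson's r of scaled log2 CPM, were Rras2, Tbc1d4, Tmem120b, Igsf9, P2ry10, H2-DMb2, Zbtb46, Gm33100, Palld and Gm47662, with r from 0.982 to 0.989. The libraries of a population share most of this pattern, so r is a description and carries no test. Tbc1d4, which is also among the 54 genes, went from 6.94 CPM in WT moMs through 15.9 in tnsIMs to 247 in matIMs. H2-DMb2, a subunit of the chaperone that loads peptide on MHC-II, went from 18.8 through 77.6 to 446 CPM, and P2ry10, a G-protein coupled receptor gene, from 3.29 through 8.86 to 92.4. Of the 10 genes themselves, Socs2 and Ccr7 lay closest to their common profile, with r of 0.986 and 0.986, and Cd83 and Il4i1 farthest, with 0.856 and 0.549.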

How the data were processed

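Lung moMs, tnsIMs and matIMs of WT and Ezr-KOm mice were sequenced after LPS inhalation, in 18 libraries. The authors deposited raw read counts per gene, made with STAR 2.7.9a in its gene count mode on GRCm39 with Gencode annotation; the strand column they took is not given in the sources used here, and replicates were not pooled. From these counts, genes were kept by edgeR's filterByExpr with a smallest count of 10, scaled by TMM, and tested with edgeR 4.0.16's quasi-likelihood test in a model of the 6 groups, with Benjamini-Hochberg adjustment over 15811 genes. CPM values use TMM library sizes. Library totals were 16512783 to 48460995 counts, so genes of a few counts were measured imprecisely. Fits were tested on simulated data.

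The 10 genes and all gene lists were chosen with earlier results of these data known. Named were the 10 genes, of each list of the wider programme the 5 with the highest mean log2 CPM, and the 10 genes most like the mean profile. Families and markers are shown by examples, chosen after their values were seen. Same-numbered replicates of the genotypes deviated together (r 0.102 to 0.316 over 9 pairs, against -0.238 to 0.0508 for unequal numbers), so a fit with the replicate number of the labels as a block was read too. Same-numbered libraries of different populations within a genotype did so as well (r 0.0905 to 0.397 over 18 pairs, against -0.295 to 0.0316), while the tests between populations had no block. Deviations were taken from the mean of the 3 libraries of a group, so they cancel within it. The lower r of unequal numbers follows in part from this and is not a separate comparison. Results were recomputed with DESeq2 1.42.0, with scaling by library totals only or by upper quartiles, with another count filter or none, with the block, a block of genotype and replicate number together for the comparisons of populations, a fit of only the groups compared, and without each library in turn. Promoters were read from GRCm39 with Gencode M39 transcript starts.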

Additional observations from a re-analysis of the deposited data

How the results depend on the processing

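After adjustment, 0 of the 10 genes passed for genotype under any of 25 alternative fits, 18 of them without 1 library. With at least 10 counts in every library only 7 of the genes were fitted. The fit of only the groups compared held 7 in moMs and 9 in tnsIMs. No interaction passed under these settings or under the block of genotype and replicate number together, which was not fitted for genotype. Of 29 genotype differences of single genes, 14 kept their direction under every setting and 15 did not; the cause was not tested. With library totals only, the difference was 0.018 for Cd83 in tnsIMs and 0.0085 for Ccl17 in matIMs. For Cd83 in tnsIMs the fit of only the groups compared gave 0.0056. The replicate block gave 0.021 for Cd83 in tnsIMs and changed no adjusted call. Leaving out 1 library each, differences in moMs ran from -0.088 to 0.37 for Fscn1, -1.35 to 0.63 for Cacnb3, -0.68 to 2.58 for Apol7c and -0.083 to 0.20 for Socs2. In tnsIMs they ran from -0.012 to 0.74 for Fscn1, -0.026 to 0.61 for Cacnb3, -0.50 to 1.07 for Apol7c, -0.057 to 0.76 for Ccl17, -0.21 to 0.28 for Cd83, -0.14 to 0.024 for Socs2 and -0.0060 to 0.096 for Tmem123. In matIMs they ran from -0.24 to 0.28 for Apol7c, -0.28 to 0.23 for Ccl17, -0.57 to 0.12 for Il4i1 and -0.015 to 0.47 for Tmem123.

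Genes meeting the study's rule in moMs numbered 0 to 2, with 1 without WT replicate 2 and 2 without Ezr-KOm replicate 2. The median log2 fold change of the 10 genes changed where fewer of them were fitted. With at least 10 counts in every library (7 genes) it was 3.05 for WT tnsIMs against moMs, 6.42 for WT matIMs against moMs, 2.82 for WT matIMs against tnsIMs, 5.61 for Ezr-KOm matIMs against moMs and 2.59 for Ezr-KOm matIMs against tnsIMs. Fitting only the groups compared (9 genes) gave 3.56, 7.08, 4.04, 6.81 and 3.77 in that order. Without 1 library each it ran from 2.96 to 3.46 for WT tnsIMs against moMs, from 3.42 to 4.06 for WT matIMs against tnsIMs and from 3.25 to 3.79 for Ezr-KOm matIMs against tnsIMs. With Il4i1 at its bound, the matIM to tnsIM medians were 3.47 in WT and 3.20 in Ezr-KOm. Of the 54 wider programme genes, 14 to 23 were higher in Ezr-KOm tnsIMs than in moMs when 1 library was left out, the lowest without Ezr-KOm moM replicate 2 or tnsIM replicate 1. With genotype and replicate number as a block, the counts of these 54 genes higher were 29, 40 and 33 in WT and 27, 40 and 34 in Ezr-KOm for tnsIMs against moMs, matIMs against moMs and matIMs against tnsIMs, each within 1.5 times the count without it.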
